A study of Mus musculus with 16 samples.

Results

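The cytosolic ribosomal proteins are the structural proteins of the ribosome that translates nuclear-encoded mRNA. Their genes were taken by symbol, as every gene whose whole RefSeq symbol is Rpl or Rps followed by a number and optional lower-case letters. Rplp0, Rplp1, Rplp2 and Rpsa were taken as well. The arrays carried 81 such genes, of 20122 genes with a RefSeq symbol, on 167 probes. Levels could be tested for 79 of them, 48 of the large subunit and 31 of the small subunit. The other 2, Rpl10l and Rpl39l, are paralogs known from the testis, and their probes were not well above background on any of the 16 arrays. Total RNA of gastrocnemius, a mixed but largely fast calf muscle, was taken from female mice of the inbred strain C57Bl/6J, all untreated, at ages of 3, 15, 24 and 29 months, with 4 arrays at each age. No group carried an allele or received an agent, so age was the only difference between groups that the labels give. Whether the 4 samples at an age are 4 different mice is not stated, and each p-value is therefore relative to the variation among these samples, part of which may be technical.

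A ribosome holds 1 copy of most of these proteins beside its ribosomal RNA, and their synthesis is kept in step with that of the RNA. Their mRNAs mostly begin with a run of pyrimidines, which lets the mTOR pathway set how well they are translated. In striated muscle the large subunit protein Rpl3 is largely replaced by its paralog Rpl3l, and Rpl3 is known to return at the expense of Rpl3l when muscle grows or is injured.

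Each array was hybridised with 1 sample in 1 colour, and 48.0% to 60.9% of its spots were well above background, with none saturated. A level here is the log2 signal minus the 75th percentile of its array, and levels of different probes are not compared. All 79 genes tested were well above background on all 16 arrays. The 3- and 15-month arrays lay on slide 1 and the 24- and 29-month arrays on slide 2, so 15 against 3 months and 29 against 24 months were comparisons within a slide. In the other comparisons of ages, age and slide cannot be told apart. All 15 muscle fibre markers were measured, and their summed level per array ran from 10390 to 15410 in units of the array's 75th percentile. The 29-month replicate 1 stood apart: its T and NK cell markers summed to 145.3, against 25.1 to 37.4 on the other 15 arrays, and its muscle fibre sum was the lowest. It also had the highest sums of proliferation markers (3.24, next 1.04) and of B and plasma cell markers (9.75, next 7.01). Of the 12 T and NK cell markers 6 were measured and none was called at 29 against 3 months. Cd3d, Cd3g, Cd8a, Cd8b1, Trac and Gzmb were not tested. None of them had a probe that was well above background on every array of some age. Whether any of them was well above background on 29 months replicate 1 alone was not examined.

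Between 3 and 29 months, ribosomal protein transcripts were slightly higher at the older age and none was called lower. With limma and Benjamini-Hochberg adjustment over all 21777 genes tested, 15 of the 79 genes rose at an adjusted p under 0.05, which is 19.0%. Of all genes tested, 6.99% rose and 7.66% fell (14.6% called in all). The differences were small for most members: the median log2 difference was 0.19 over the 79 genes and -0.04 over all genes, and Rpl3, the largest, reached 1.11. The estimate was above 0 for 74 of 79 genes. Both subunits took part, with 8 of 48 large subunit genes (median 0.18) and 7 of 31 small subunit genes (median 0.21) called higher. At an unadjusted p under 0.05, 32 members were higher and 2 lower (all genes: 13.1% higher and 15.7% lower). For 22 members (27.8%) all 29-month arrays lay above all 3-month arrays, as for 8.74% of all genes, and for 1, Rps4l, all lay below, as for 11% of all genes. The first count rested on the scaling: with median scaling it was 2 members (2.53%), below the 5.15% of all genes. In bulk muscle RNA, a change in the mix of cells and a change in RNA per cell cannot be told apart. Markers of other cells differed between the same ages: smooth muscle and pericyte markers summed to 65.7 to 86.2 at 3 months and 36.0 to 50.3 at 29 months (3 of 6 called lower), and 3 of 8 endothelial and 4 of 9 fibroblast markers were called lower. Of the proliferation markers 1 of 3 measured, and of the B and plasma cell markers 1 of 4 measured, was called higher, with list medians of 1.24 and 1.12 on the log2 scale. Their part in the members' levels was not tested.

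**Figure D1:**
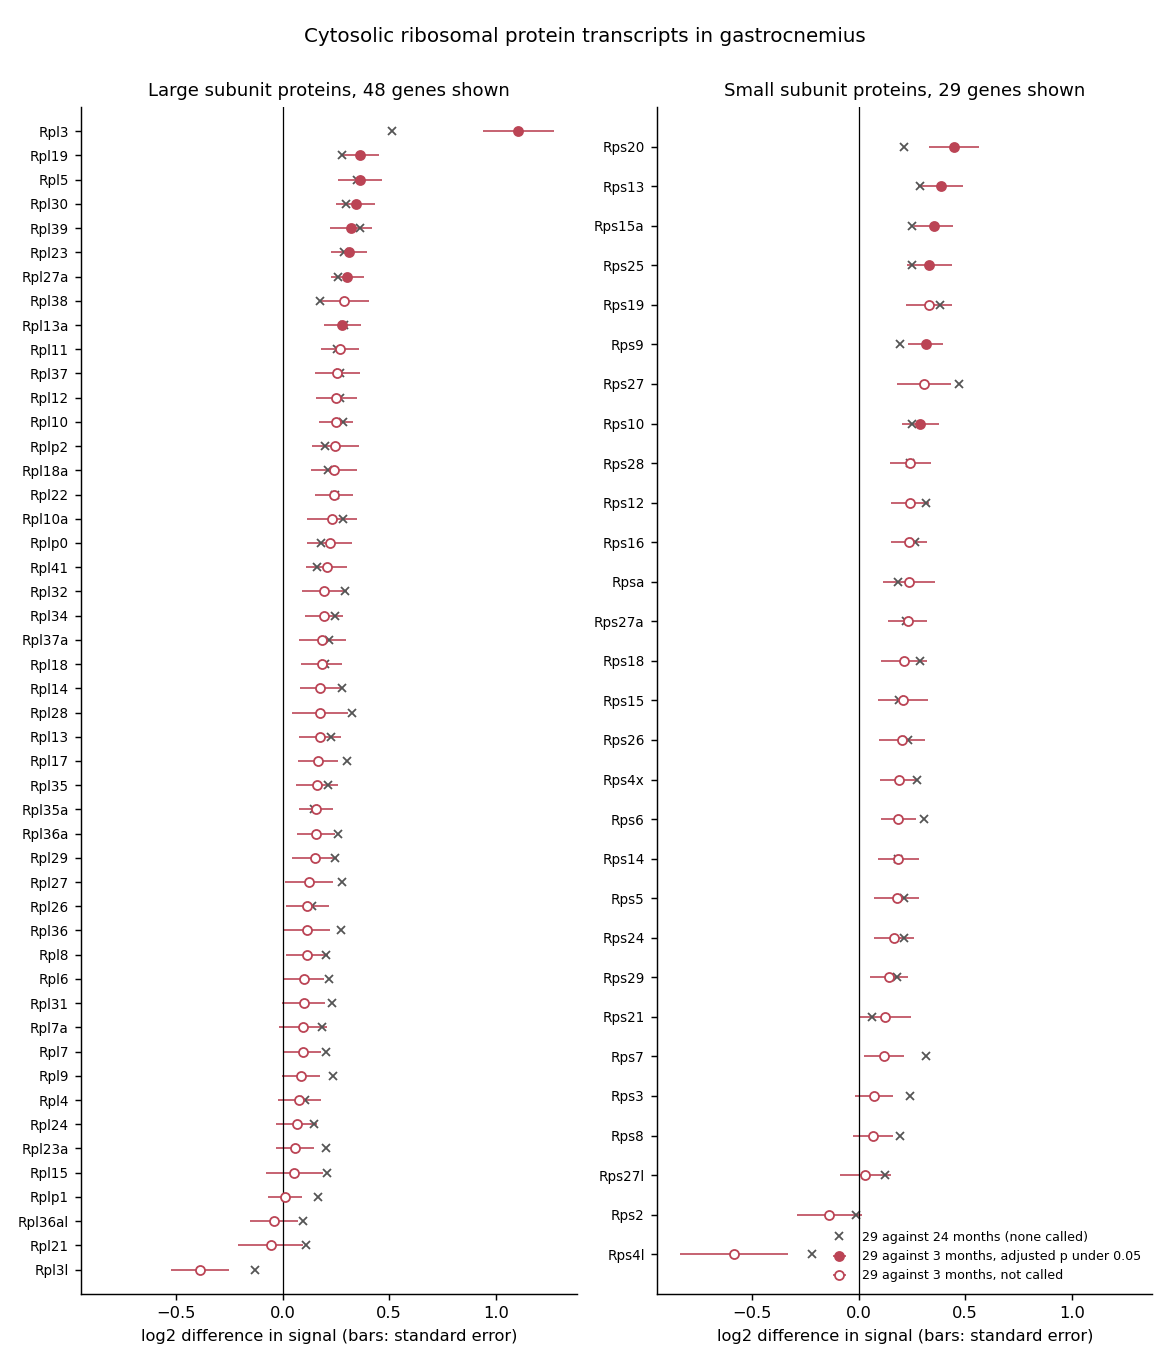
Change of 77 of the 79 ribosomal protein genes, with genes on the y axis and the log2 difference on the x axis, large subunit left and small subunit right. Circles with standard error bars are 29 against 3 months, filled for the 14 called genes shown, and crosses are 29 against 24 months; nearly all points lie to the right of 0, with Rpl3 farthest right and Rpl3l and Rps4l on the left.

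The number of genes called was sensitive to processing, and Rpl3 was the only member called under all 28 alternatives. Scaling arrays by their median left 1 called gene, fitting only the 8 arrays of these ages left 1, and leaving out single arrays gave 3 (without 3 months replicate 2) to 17 (without 24 months replicate 2). The calls fell to 4 without 29 months replicate 3, to 5 without 3 months replicate 1 and to 7 without 29 months replicate 2. The share of all genes called under each alternative was not counted, so these counts do not show a change particular to the members. The direction held more widely, with a member median between 0.13 and 0.23 under the alternatives and at least 65 of 79 estimates above 0.

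The members moved together from array to array. The deviation of each gene from its own mean over the 16 arrays was taken, and the median over the 79 genes was computed for each array. At 29 months these medians were 0.03, 0.20, 0.29 and 0.09, and 46, 75, 77 and 71 of the 79 genes lay above their own mean. At 24 months the medians were -0.03, -0.09, -0.05 and -0.16, so the arrays of these ages did not overlap. At 15 months they were -0.02, 0.01, -0.08 and 0.00, and at 3 months -0.14, -0.11, 0.00 and 0.08. The highest 3-month array, replicate 4, lay above the lowest 29-month array, replicate 1. Because a shift of a whole array moves all members at once, counts over members are not counts of independent events. The within-age SD of a gene's level had a median of 0.11 over members and of 0.23 over all genes. Most members were bright, and their SDs were not compared with those of genes of like signal. The largest SD of a member was 0.39, for Rps4l, which lay below the array's 75th percentile.

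**Figure D2:**
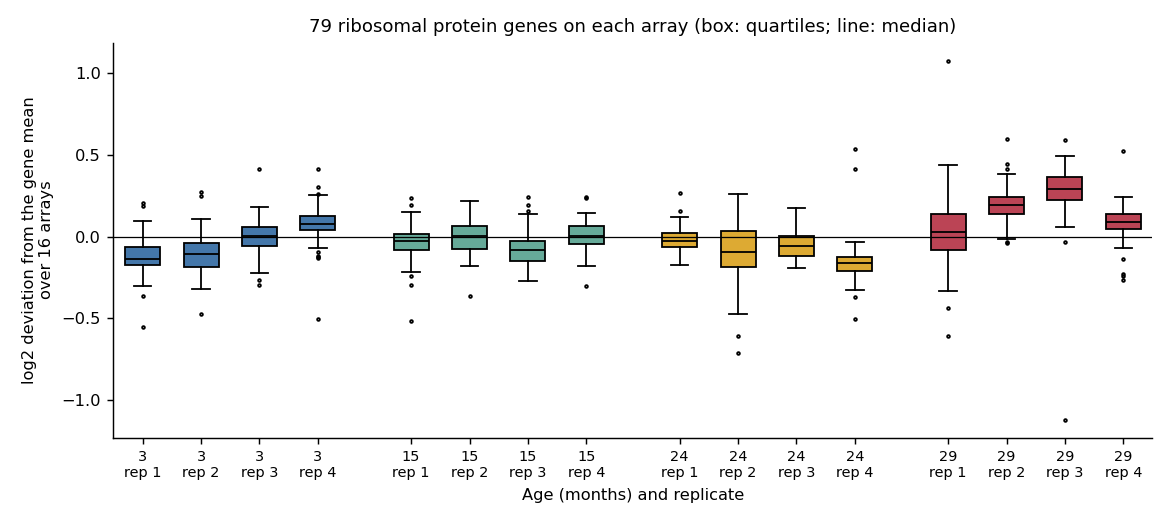
Deviation of the 79 ribosomal protein genes from their own means, with arrays by age and replicate on the x axis and the log2 deviation on the y axis. Boxes show quartiles and lines the medians; the 4 medians at 29 months (0.03 to 0.29) lie above the 4 at 24 months (-0.16 to -0.03), whereas those at 3 months (-0.14 to 0.08) overlap the 29-month range.

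In the step from 24 to 29 months, within slide 2, members were higher at the older age more uniformly than in the other comparisons of ages that were run with this scaling. The median log2 difference was 0.24 over members and -0.03 over all genes, and 76 of 79 estimates were above 0. For 36 of the 79 genes (45.6%) every 29-month array was above every 24-month array, which held for 4.71% of all genes. No member was called by limma after adjustment (all genes: 1.91% called; 1.47% higher), and the smallest adjusted p was 0.0708. At an unadjusted p under 0.05, 49 members were higher and 0 lower, where 8.82% of all genes were higher and 6.47% lower. The count of 36 was 19 after quantile normalization, 20 in the authors' deposited log2 values and 14 with median scaling, where 3.96%, 5.54% and 3.65% of all genes did the same, and 58 without 29 months replicate 1 (9.48% of all genes). Age could not be told apart from position here, since the 24-month arrays lay in row 1 and the 29-month arrays in row 2 of the slide. On slide 1, where the 15-month arrays lay in row 1 and the 3-month arrays in row 2, the member median of 15 against 3 months was 0.01.

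The members with the smallest p in that step were Rps6, Rpl39, Rps27 and Rps12. Rps6, the small subunit protein phosphorylated by S6 kinase, was at 6.96, 6.93, 7.03 and 6.90 at 24 months and at 7.28, 7.21, 7.42 and 7.13 at 29 months. No 24-month array reached the lowest 29-month array, and the log2 difference was 0.31 with a standard error of 0.08 (limma, adjusted p 0.0708). Rpl39, a short protein that lines the exit tunnel for the nascent chain, was at 6.43, 6.31, 6.38 and 6.41 at 24 months and at 6.93, 6.72, 6.71 and 6.61 at 29 months. Those groups did not overlap either, with a log2 difference of 0.36 with a standard error of 0.10 (limma, adjusted p 0.0751). Rps27, a small subunit zinc-binding protein, rested partly on 1 low array: it was at 7.91, 7.42, 7.90 and 7.89 at 24 months and at 8.23, 8.12, 8.51 and 8.14 at 29 months. Rps12 was at 8.48, 8.40, 8.36 and 8.29 at 24 months and at 8.70 on all 4 arrays at 29 months (log2 difference 0.31, limma, adjusted p 0.0905).

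At the earlier ages the member median lay between -0.05 and 0.01. At 15 against 3 months the member median was 0.01 with 43 of 79 estimates above 0, no member was called by limma (0.978% of all genes were), and 1 gene was higher and 0 lower at an unadjusted p under 0.05 (all genes: 6.01% and 4.71%). That gene was Rps20, with a log2 difference of 0.26 (limma, adjusted p 0.442). At 24 against 3 months the median was -0.04 with 24 estimates above 0, again with no call by limma (4.66% of all genes) and with 1 gene higher, Rpl3, and 1 lower at an unadjusted p under 0.05 (all genes: 9.39% and 11.8%). With median scaling that member median was -0.17 with 2 estimates above 0, where the median of all genes was -0.15. At 24 against 15 months the median was -0.05, with no call by limma (0.0964% of all genes) and with 1 gene higher, Rpl3, and 2 lower at an unadjusted p under 0.05 (all genes: 6.29% and 7.13%). The lower ones were Rps27 (-0.33, adjusted p 0.291) and Rpl4 (-0.22, adjusted p 0.365).

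The difference between both steps within slides was tested directly, as 29 minus 24 months against 15 minus 3 months. The 29- and 3-month arrays lay in row 2 and the 24- and 15-month arrays in row 1. A difference between rows would therefore add up over both steps and not cancel, and age and row cannot be told apart here. Its member median was 0.23 with 75 of 79 estimates above 0, and 21 members were higher and 0 lower at an unadjusted p under 0.05 (all genes: 6.66% and 5.8%). None was called by limma after adjustment (0.67% of all genes), with a smallest adjusted p of 0.164, for Rps4x. A linear slope on age, fitted with a separate level for each slide, had a member median of 0.0070 per month on the log2 scale and also called none by limma (0.634% of all genes), with 6 members higher and 0 lower at an unadjusted p under 0.05 (all genes: 5.88% and 5.01%).

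Rpl3 was higher and the difference Rpl3l minus Rpl3 smaller on the 24- and 29-month arrays. These arrays are slide 2 and the 3- and 15-month arrays slide 1, so in every comparison of the pair that passed its test age and slide cannot be told apart, and neither step within a slide passed. Rpl3, which helps to form the peptidyl transferase centre, was at 3.67, 3.75, 3.93 and 3.72 at 3 months and at 3.71, 3.86, 4.09 and 3.92 at 15 months. It was at 4.49, 4.01, 4.18 and 4.76 at 24 months and at 5.30, 4.82, 4.63 and 4.74 at 29 months. Every 24- and 29-month array lay above every 3-month array, and the 15-month arrays overlapped both the 3- and the 24-month range. The mean rose from 3.77 ± 0.11 to 4.87 ± 0.29 (SD, n = 4 arrays each) between 3 and 29 months, a 2.15-fold rise with a log2 difference of 1.11 and a standard error of 0.17 (limma, adjusted p 0.000656). At 24 against 3 months the difference was 0.59 (limma, adjusted p 0.0565), and within slide 2 it was 0.51 at 29 against 24 months (adjusted p 0.141). The adjusted p of 24 against 3 months was 0.0288 without 29 months replicate 1 and 0.133 without 3 months replicate 4.

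Rpl3l, the form found in heart and skeletal muscle, had lower means at the older ages. It was at 6.52, 6.56, 6.25 and 6.57 at 3 months and at 6.51, 6.47, 6.51 and 6.44 at 15 months. It was at 6.27, 5.96, 6.49 and 6.16 at 24 months and at 5.71, 6.27, 6.28 and 6.09 at 29 months. The 3- and 29-month ranges overlapped through 1 low 3-month array, and the lowest value of all was 29 months replicate 1. The log2 difference of 29 against 3 months was -0.39 with a standard error of 0.14 and was not called (limma, adjusted p 0.073). It was called under 4 of the 28 alternatives: quantile normalization (adjusted p 0.0093), the authors' deposited values (0.0128), another background correction (0.0369) and array weights (0.0475). Over all alternatives the estimate ran from -0.50 to -0.26 and the adjusted p up to 0.266.

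The difference Rpl3l minus Rpl3 within an array is unaffected by subtracting a constant from an array, though its size is not a ratio of transcripts because each gene has 1 probe. It was 2.85, 2.81, 2.33 and 2.85 at 3 months and 2.80, 2.61, 2.43 and 2.52 at 15 months. It was 1.78, 1.95, 2.31 and 1.40 at 24 months and 0.41, 1.46, 1.65 and 1.35 at 29 months. All 4 arrays of 24 months, and all 4 of 29 months, lay below all 3- and 15-month arrays, a split that is also slide 2 against slide 1. Between 3 and 29 months the mean fell by 1.49 on the log2 scale (exact permutation test, two-sided p 0.0286, the smallest that 4 against 4 arrays allow; adjusted over 5 comparisons 0.0476). It fell by 0.85 at 24 against 3 months and by 0.73 at 24 against 15 months, each with the same exact p of 0.0286. It fell by 0.64 at 29 against 24 months (exact permutation p 0.0857) and by 0.12 at 15 against 3 months (exact permutation p 0.4), both within a slide. Leaving out single arrays, the 29 against 3 months difference ran from -1.64 to -1.22.

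Marker sums of other cell types differed among the arrays with the smallest differences of the pair. The 29-month replicate 1, with the highest Rpl3 and lowest Rpl3l, was the array with the high T and NK cell, proliferation and B and plasma cell sums, and had the lowest endothelium (63.1), tendon (8.84) and satellite cell (5.53) sums of the 16 arrays. The 29-month replicate 4, with the next smallest difference, had T and NK cell markers at 30.1 and adipocyte markers at 160.4. The 24-month replicate 4, with the highest Rpl3 at its age, which followed, had the highest adipocyte (302.3, against 48.4 to 160.4 elsewhere) and macrophage sums (247.5, against 109.1 to 219.8). Without 29 months replicate 1 the Rpl3 difference of 29 against 3 months was 0.96 (limma, adjusted p 0.0014) and that of Rpl3l -0.26 (adjusted p 0.177). Without 24 months replicate 4 the Rpl3 difference of 24 against 3 months was 0.46 (adjusted p 0.126). The fibroblast markers, 343 to 558 at 3 months, summed to 141.8 to 315 at 29 months. The part of other cell types in the levels of the pair was not tested beyond these values.

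**Figure D3:**
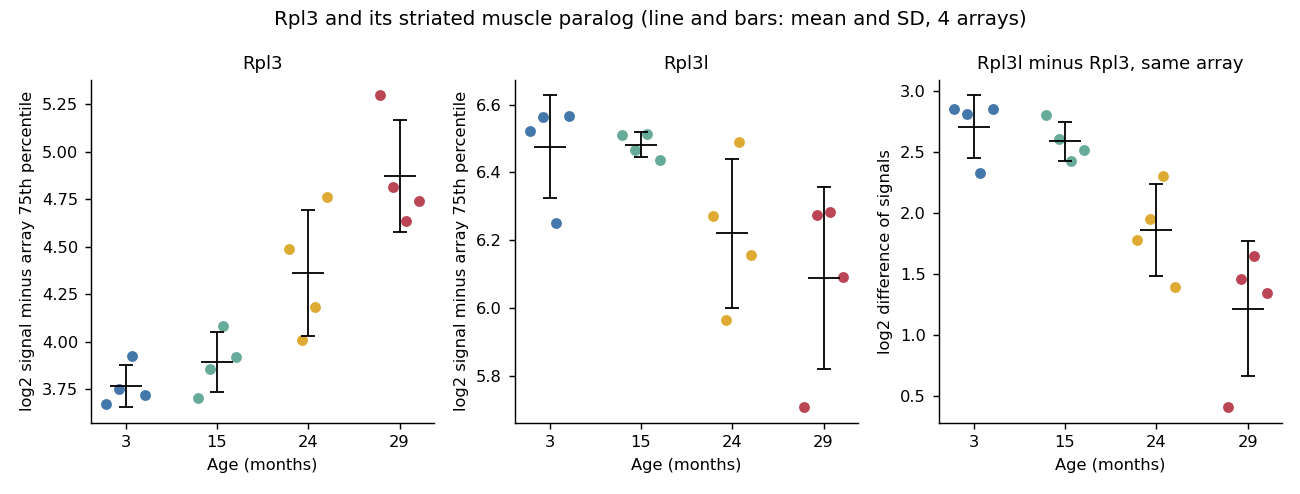
Levels of Rpl3 (left) and Rpl3l (middle) and the difference Rpl3l minus Rpl3 on the same array (right), with age in months on the x axis and log2 values on the y axis. Points are the 4 arrays of an age, with mean and SD; Rpl3 lies higher at 24 and 29 months, and the difference falls from 2.33 to 2.85 at 3 months to 0.41 to 1.65 at 29 months.

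Among large subunit genes, the called rises other than Rpl3 were all between 0.28 and 0.36 on the log2 scale. Rpl19, an early-binding protein of the subunit, was at 6.52, 6.60, 6.53 and 6.63 at 3 months and at 6.82, 7.08, 6.96 and 6.87 at 29 months. The groups did not overlap, the rise was 1.29-fold (log2 0.36, standard error 0.09; limma, adjusted p 0.011), and it was called under 25 of 28 alternatives. Rpl5 carries the 5S ribosomal RNA into the subunit with Rpl11, and both can bind the p53 regulator Mdm2 when they are free. Rpl5 was at 5.98, 5.88, 5.73 and 5.87 at 3 months and at 6.09, 6.31, 6.46 and 6.04 at 29 months, a rise of 0.36 with a standard error of 0.10 (limma, adjusted p 0.0305). Rpl11 was at 7.92, 7.95, 7.99 and 8.13 at 3 months and at 8.13, 8.39, 8.37 and 8.16 at 29 months, 0.27 higher without passing the threshold (limma, adjusted p 0.0559), and its groups all but touched. The remaining called genes were Rpl30 (0.34, adjusted p 0.0211), Rpl39 (0.32, adjusted p 0.0384), Rpl23 (0.31, adjusted p 0.0239), Rpl27a (0.30, adjusted p 0.0156) and Rpl13a (0.28, adjusted p 0.0457). Rpl13a was called under 9 alternatives and Rpl39 under 11. Free Rpl13a is known to repress translation of inflammatory mRNAs.

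Among small subunit genes, Rps20, a protein of the head of the subunit, had the largest called rise. It was at 8.55, 8.64, 8.73 and 8.78 at 3 months and at 8.80, 9.32, 9.23 and 9.13 at 29 months. It lay between 8.73 and 9.03 at 15 months and between 8.80 and 9.07 at 24 months, and its rise of 29 against 3 months was 0.45 with a standard error of 0.12 (limma, adjusted p 0.0188). Rps13 was at 7.48, 7.47, 7.55 and 7.67 at 3 months and at 7.72, 8.09, 8.07 and 7.83 at 29 months, a rise of 0.39 (limma, adjusted p 0.0236). Rps15a was at 6.65, 6.64, 6.75 and 6.83 at 3 months and at 7.12, 7.04, 7.22 and 6.91 at 29 months, a rise of 0.35 (limma, adjusted p 0.019). These 3 genes had all 29-month arrays above all 3-month arrays. Rps25, a protein used by some internal ribosome entry sites, was at 6.89, 6.84, 7.06 and 7.05 and at 7.01, 7.35, 7.50 and 7.30, with 1 overlapping array, and its call (0.33, limma, adjusted p 0.0456) held under 6 of 28 alternatives. Rps9 (0.31, limma, adjusted p 0.0186) and Rps10 (0.29, adjusted p 0.0364) were also called.

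**Figure D4:**
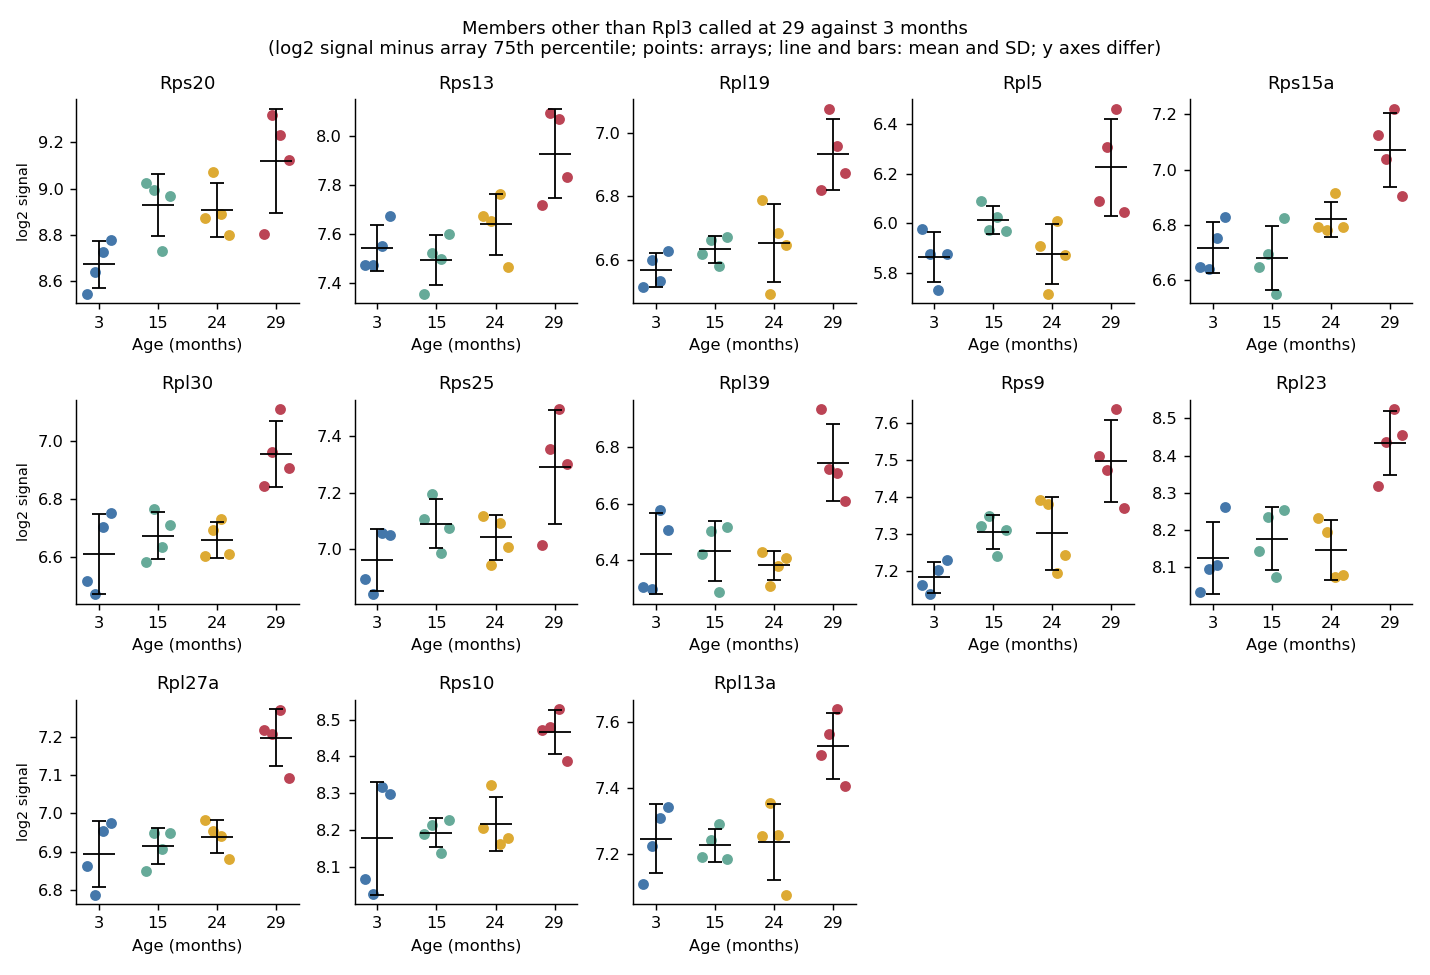
Levels of 13 called genes other than Rpl3, with age in months on the x axis and the log2 level on the y axis, whose range differs between panels. Points are arrays, with mean and SD (n = 4), and the 29-month mean is the highest in every panel. In several panels, those of Rps20, Rps9 and Rps25 among them, some 15- and 24-month points also lie above all 3-month points.

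Several members with roles outside the subunit core did not pass the threshold at 29 against 3 months. The stalk proteins that recruit elongation factors gave differences of 0.22 for Rplp0 (adjusted p 0.182), 0.01 for Rplp1 (0.95) and 0.25 for Rplp2 (0.155) by limma. Rplp1 was at 7.93 ± 0.12 at 3 months and at 7.95 ± 0.07 at 29 months (SD, n = 4). Rpsa, also known as a laminin receptor, gave 0.24 (limma, adjusted p 0.221), and Rps27a, made as a fusion with ubiquitin, 0.23 (0.103). Rps19 and Rps14, whose loss is linked to failure of red cell formation, gave 0.33 (limma, adjusted p 0.0541) and 0.19 (0.222). Rps6 gave 0.19 (0.14), Rpl10, 0.25 (0.0516) and Rpl22, 0.24 (0.0877). Rps19 and Rpl10 were each called under 7 of 28 alternatives.

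In the other 3 paralog pairs with both genes taken by the symbol rule and measured, no gene was called at 29 against 3 months by the probe that stands for it. Rps27l, a paralog induced by p53, differed by 0.03 (limma, adjusted p 0.898), beside 0.31 for Rps27 (0.12), and was at 5.85 on 29 months replicate 1 and between 6.35 and 6.42 on the other 29-month arrays. Rpl36al differed by -0.04 (limma, adjusted p 0.853), beside 0.16 for Rpl36a (0.264). The other 2 probes of Rpl36a gave 0.39 (adjusted p over probes 0.019) and 0.38 (0.0215), and the gene was called with the mean over its probes and with normexp background (lowest adjusted p 0.0301). Rps4l was at -0.57, -0.49, -0.35 and -0.50 at 3 months and at -0.92, -0.66, -1.88 and -0.79 at 29 months, below the array's 75th percentile throughout. Its groups did not overlap, but its difference of -0.58 had a standard error of 0.25 and was not called (limma, adjusted p 0.142). Without 29 months replicate 3 it was -0.31 (adjusted p 0.36). Rps4x, its X-linked counterpart, differed by 0.19 (0.18). Rps2 and Rpl21 had the other estimates below 0, -0.14 (limma, adjusted p 0.601) and -0.06 (0.849).

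Probes of the same gene mostly had estimates of the same sign. Of the 160 kept probes, 22 were called higher and 0 lower at 29 against 3 months. The share called over all kept probes of the array was not counted, so whether 22 is many cannot be said. Of the 49 genes with more than 1 kept probe, 44 had all estimates on 1 side of 0 and 5 had estimates on both sides, none of them called. The 2 kept probes of Rps13 gave 0.39 and 0.35, and the 4 of Rps27 gave 0.24 to 0.34, with 1 of them called. The 30 genes with a single kept probe, Rpl3, Rpl3l, Rps20 and Rpl19 among them, have no such check. Ribosomal protein genes have many processed copies in the genome, and which of these a probe could also bind was not tested.

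Promoter sequence was available for 60 of the 81 genes in the RefSeq promoter table (build GRCm38.p6), as 72 windows because some genes have more than 1 start. Windows from 40 bases before to 20 bases after the start were searched on both strands for CCGGAA, the core bound by ETS factors, for CTTTCC, a short pyrimidine run, and for CAGCTG, an E-box of the kind bound by myogenic factors. CCGGAA was found in 23.6% of the members' windows and in 5.86% of all windows of that length in the table. CTTTCC was found in 19.4% and 5.38%, and CAGCTG in 1.39% and 3.62%, the only member window with it being that of Rpl3l. Of the called genes with a promoter in the table, 3 had a match and the other 8 had none. The share of uncalled members with a match was not counted. Rpl19 and Rpl3l each have another start, whose window had no match and is not shown. The windows below show those 3 genes and Rpl3l, 5′ to 3′ on the strand of the gene, with matches in capitals on either strand.
Rpl19 (chr11:98026670-98026729, plus strand): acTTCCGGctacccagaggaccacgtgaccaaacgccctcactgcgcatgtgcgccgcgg
Rps10 (chr17:27635225-27635284, minus strand): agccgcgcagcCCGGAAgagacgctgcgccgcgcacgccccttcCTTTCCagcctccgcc
Rpl13a (chr7:45128726-45128785, minus strand): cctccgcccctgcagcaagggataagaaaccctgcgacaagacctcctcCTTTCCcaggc
Rpl3l (chr17:24727786-24727845, plus strand): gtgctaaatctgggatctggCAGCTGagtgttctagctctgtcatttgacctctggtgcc
A match shows only that the letters occur in the window on either strand, so a match to the pyrimidine run need not be pyrimidines in the mRNA.

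The genes that make and assemble ribosomes were taken as lists by role. Of the 27 measured genes for ribosomal RNA processing, 6 rose and 1 fell at 29 against 3 months (list median 0.18, beside -0.04 over all genes, of which 6.99% rose and 7.66% fell). At 29 against 24 months 2 rose (median 0.26, beside -0.03 over all genes, of which 1.47% rose). Nolc1, a nucleolar chaperone of small nucleolar ribonucleoproteins, was at 2.12 ± 0.07, 2.16 ± 0.06, 2.14 ± 0.08 and 2.63 ± 0.09 (SD, n = 4) from 3 to 29 months. It differed by 0.50 at 29 against 3 months (limma, adjusted p 0.000944) and by 0.48 at 29 against 24 months (0.00851). With the mean over its probes neither difference was called, and that of 29 against 3 months was 0.17. The call at 29 against 24 months was also lost when only the ages compared were fitted and without the 4 arrays of lowest weight. The RNA helicase Ddx21 rose by 0.76 (limma, adjusted p 0.0023) and Utp14a, a factor of the small subunit processome, by 0.93 (0.0031), whereas the pseudouridine synthase Dkc1 fell by 0.53 (0.00927). Rrp12 (0.95, adjusted p 0.0201), nucleolin, Ncl (0.53, adjusted p 0.0354), and Rrp1b (0.30, adjusted p 0.0428) made up the rest, with Ncl called under 18 and Rrp1b under 8 of 28 alternatives.

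Of the 24 genes for subunit assembly and export, 6 rose and 0 fell at 29 against 3 months (median 0.11; all genes: 6.99% rose and 7.66% fell), and Sbds and Rrs1 also rose at 29 against 24 months. Sbds and Efl1 release the anti-association factor Eif6 from the large subunit. Sbds was at 2.59 ± 0.08 at 3 months, 2.77 ± 0.09 at 24 months and 3.38 ± 0.11 at 29 months (SD, n = 4), a 1.73-fold rise over 3 months (limma, adjusted p 8.68e-05) that was called under all 28 alternatives. Efl1 rose by 0.32 (limma, adjusted p 0.0439), a call that held under 11 of 28 alternatives. Rrs1, which helps the 5S particle into the subunit, rose by 0.51 (limma, adjusted p 0.0111) and by 0.76 over 24 months (0.00675). The small subunit kinases Riok2 (0.47, adjusted p 0.0102) and Riok1 (0.40, adjusted p 0.011) and the factor Tsr1 (0.43, adjusted p 0.0336; called under 19 alternatives) were the other called genes.

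Of the 10 genes of RNA polymerase I transcription, Taf1d alone rose, by 0.66 at 29 against 3 months (limma, adjusted p 0.00203) and by 0.61 at 29 against 24 months (0.0193), and 0 fell. That is 1 of 10, where 6.99% of all genes rose at 29 against 3 months. The second by p, Taf1a, differed by -0.31 (limma, adjusted p 0.107). A list of 16 genes whose mRNAs also begin with pyrimidine runs held mostly translation factors, beside others such as Naca and Hnrnpa1. Of these 16, Naca alone rose, by 0.29 (limma, adjusted p 0.0448, called under 10 of 28 alternatives), and 0 fell. The list median was 0.13, and the list's share of 1 in 16 was near that of all genes. Pabpc1, the poly(A)-binding protein of the same list, fell by 0.64 at 15 against 3 months (limma, adjusted p 0.02) and was also called lower at 24 against 3 months, but not at 29 against 3 months (-0.19, adjusted p 0.321). Eef1b2 differed by 0.23 (limma, adjusted p 0.0847). Of the 6 ribosomal protein genes with other symbols none was called by limma, with Fau at 0.31 (adjusted p 0.0635) and Rpl7l1 at -0.47 (0.0681), and 3 passed an unadjusted p under 0.05.

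Of the 20 genes that control ribosome synthesis and translation, 2 rose and 2 fell at 29 against 3 months, near the 6.99% and 7.66% of all genes. Myc, a transcription factor that drives ribosome synthesis, was at -0.46 ± 0.31, -0.73 ± 0.18 and -0.52 ± 0.36 at 3, 15 and 24 months and at 0.83 ± 0.63 at 29 months (SD, n = 4). It rose 2.45-fold over 3 months (limma, adjusted p 0.00494) and by 1.35 over 24 months (0.0208). Eif4ebp1, which restrains cap-dependent translation, rose by 0.86 (limma, adjusted p 0.0164) and by 1.05 over 24 months (0.0251). Its target, the cap-binding protein Eif4e, fell by 0.55 (limma, adjusted p 0.0326), a call that held under 16 of 28 alternatives, with estimates from -0.70 to -0.23, and was lost without 29 months replicate 1, without 29 months replicate 3 and without any single 3-month array. Mycn was at least 3.98-fold lower. Its probe was not well above background on any 29-month array, so this bound takes each array's lowest signal well above background in its place. Mycn passed the filter only through the 3- and 15-month arrays, on all of which it was well above background. Its limma adjusted p of 7.9e-05 came from the 29-month signals themselves and not from the bound. Its place among the 2 genes called lower therefore depends on signals near background. Larp4, which binds poly(A) tails, rose at 29 against 24 months (0.47, limma, adjusted p 0.0392), under 7 of 28 alternatives. In the test of the difference between both steps within slides, Rrs1, Pabpc1 and Eif4ebp1 were the genes of these lists that were called.

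**Figure D5:**
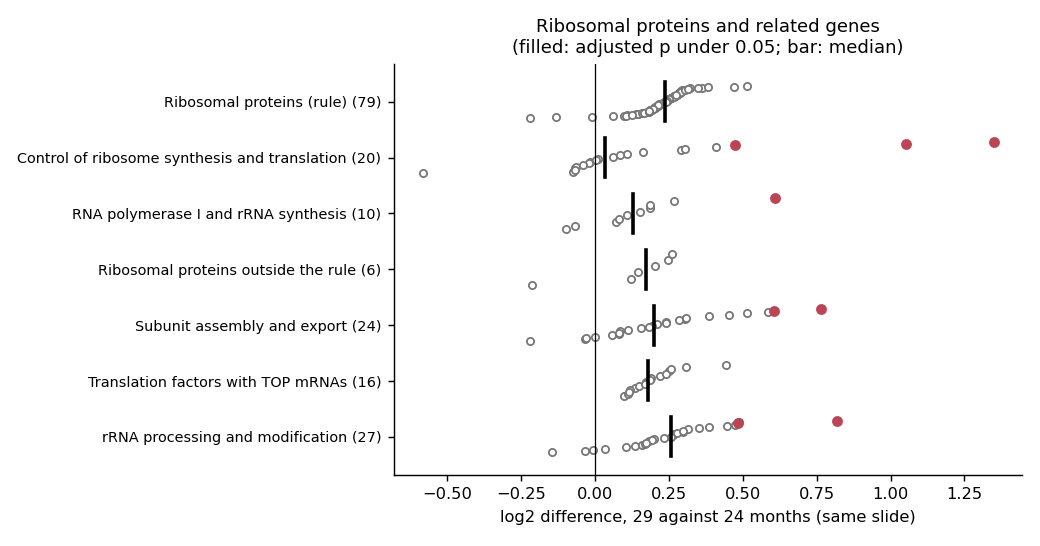
Differences of 29 against 24 months for the 79 ribosomal protein genes and for 6 lists of related genes, on a log2 x axis, with list sizes in brackets. Each circle is a gene, filled at an adjusted p under 0.05, and the bars are medians; the ribosomal proteins lie in a narrow band around 0.24 without a called gene, while Myc, Eif4ebp1, Utp14a and Rrs1 lie farther right.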

How the data were processed

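Total RNA was hybridised in 1 colour (Cy3), and the scanner files were deposited as intensity; per the file headers, Feature Extraction 10.7.1.1 subtracted the background, with no normalization between arrays. The deposited log2 table, for which the sources used here name no method, was matched to spots through feature numbers and served as an alternative. Outlier spots were dropped, and from each log2 signal its array's 75th percentile was taken off. A probe stayed if all 4 arrays of some age were well above background, and the kept probe with the highest mean stood for its gene. Symbols came from the RefSeq table of GRCm38.p6. Using limma 3.58.1 (R 4.3.3), age means were fitted over 16 arrays (12 residual and 2.73 prior degrees of freedom). On simulated data with independent noise, this fit called 74% of log2 changes of 1 and 92% of log2 changes of 2. Changes as small as those of most members were not simulated. The text names a fixed set of 24 members, the 8 with the largest called change in a direction (4 with the smallest p where fewer than 4 were called) and the 2 genes of each list with the smallest p. Other called genes and the promoters shown were named after their values were seen. Some members are counted but not reported by name here. Alternatives were other scalings, backgrounds, filters, probe rules and fits, and leaving out arrays. The members and lists were chosen with earlier results of these data known.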

Additional observations from a re-analysis of the deposited data

Results flagged for a closer look

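Among 36 named members and the Rpl3l minus Rpl3 difference, 9 of 148 groups of 4 arrays held a value set apart from the other 3 by most of the range of the group (6.08%, where chance gives about 1 in 20). Lower values set apart were Rpl10 at 3 months replicate 1 (8.44), Rpl22 (6.72) at 15 months replicate 3, Rplp2 at 15 months replicate 1 (8.40), Rps27 at 24 months replicate 2 (7.42) and Rps27l at 29 months replicate 1 (5.85). Rpl3l at 3 months replicate 3 was at 6.25, and the Rpl3l minus Rpl3 difference on that array was 2.33. Higher values set apart were Rps15a at 24 months replicate 3 (6.92) and Rps12 at 29 months replicate 1 (8.70), the latter in a group whose 4 values all round to 8.70.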

How the results depend on the processing

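Beside the member counts given above, 29 against 3 months called 4 members with no filter on dim probes, 9 with the replicate number as a block and 8 without the 4 arrays of lowest weight, a choice made after seeing the data. The replicate number is also the array's column on its slide; same-number samples had residual correlations of -0.47 to 0.30 (6 of 24 over 0.1), so the numbers were not taken to pair the samples. At 24 against 3 months, array weights, eBayes with trend and robust, and leaving out those 4 arrays called 1 each. At 29 against 24 months the calls were 5 with normexp background, 4 with eBayes with trend and robust, 1 with the deposited values and 1 with the mean over probes; the line with slide as a random block called 2. Leaving out single arrays gave 0 to 1 calls in both comparisons, 3 to 17 at 29 against 3 months and 0 in the other 4. For these counts too, the share of all genes called under the same alternative was not counted. Members whose 4 older arrays were all higher numbered 2 at 29 against 3 months with median scaling (2.53%, below the 5.15% of all genes), and 19, 20 and 14 at 29 against 24 months with quantile normalization, deposited values and median scaling. Without single arrays they numbered 22 to 36 at 29 against 3 months, beside 9.68% to 14.2% of all genes. At 29 against 24 months they numbered 36 to 58, beside 5.46% to 9.48% of all genes. In both comparisons the count of members and the share of all genes were highest without 29 months replicate 1. Leaving out single arrays, the Rpl3l minus Rpl3 difference ran from -0.998 to -0.69 (24 against 3), -0.88 to -0.57 (24 against 15), -0.80 to -0.38 (29 against 24) and -0.25 to -0.066 (15 against 3 months).

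No called gene changed sign. Uncalled estimates that did were Rps15a (-0.031) and Rps9 (-0.013) at 24 against 3 months with median scaling, and, at 29 against 24 months, Rps2 (0.047 mean over probes, 0.11 median scaling, 0.011 normexp, -0.13 to 0.12 without single arrays) and Rps4l (0.050 without the 4 arrays, -0.43 to 0.052 without single arrays). At 29 against 3 months they were Rpl21 (0.035 mean over probes, 0.029 without the 4 arrays, -0.13 to 0.063 without single arrays), Rpl36al (-0.082 to 0.022), Rplp1 (-0.075 quantile, -0.034 to 0.053 without single arrays) and Rps27l (-0.061 deposited values, -0.010 normexp, -0.040 quantile, -0.024 to 0.17 without single arrays). The causes were not tested. A random slide block could be fitted only for the line in age, because age means hold the slide. The number of arrays limits precision.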
